A study of Sus scrofa with 6 samples.

Results

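The mitochondrial respiratory chain genes of pig cartilage were followed from native tissue into chondrocyte culture. The members were all genes whose single symbol on the array begins with NDUF, UQCR, SDHA to SDHD, COX4 to COX8 or ATP5, each read from its brightest probe set over the 6 arrays. There were 64 of them among 6765 named genes, and all 64 passed the filter on low signal, as did 5601 genes in all. By symbol, 36 belonged to complex I, 5 to complex II, 2 to complex III, 7 to complex IV and 14 to complex V. Not all are subunits: NDUFAF1, NDUFAF2, NDUFAF3 and SDHAF2 are assembly factors, and ATP5S is a factor associated with the synthase rather than one of its core parts. Subunits encoded by mitochondrial DNA do not carry these symbols and are not analysed here.

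Gene expression was measured on single-colour Affymetrix arrays, 1 array per condition and 6 in all, so no condition had a replicate. Cartilage of the growth plate and of the articular surface was taken native, and chondrocytes were freed from each tissue with collagenase and grown to day 10 or day 20 of differentiation. The cultures were kept at 37 °C in 5% oxygen and 5% CO2, in DMEM/Ham's F12 with serum and antibiotics and no further supplement. The labels do not say how many pigs gave the tissue, whether RNA was pooled, or whether the cultures and the native cartilage came from the same animals. In such bulk RNA, fewer cells of a type and less RNA per cell cannot be told apart. A level here is the deposited signal of a probe set; signals of different probe sets were not set against each other.

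The trimmed mean signal was near 400.1 on every array, and between 58.6% and 61.0% of probe sets lay above the floor of 36.1. All 6 measured chondrocyte markers lay above that floor on every array. The native articular array had the lowest median signal, 59.5 against 67.5 to 71.5 on the others. Centring the arrays on their medians raised the native articular array by 0.19 log2 units and moved each of the others by less than 0.1. That step took the median growth plate minus articular difference of all genes in the native pair from -0.005 to -0.26, so directions that depend on the scaling are given with both.

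The respiratory chain passes electrons from NADH and succinate to oxygen and stores the released energy as a proton gradient. Complex I takes electrons from NADH and complex II from succinate, complex III hands them to cytochrome c, complex IV reduces oxygen, and complex V uses the gradient to make ATP. Cartilage has no blood supply of its own, and its chondrocytes are known for drawing much of their ATP from glycolysis at low oxygen.

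Most of these genes varied little over the 6 arrays. The median member spanned 0.75 log2 units between its lowest and highest array, a 1.68-fold range, against 1.11 units over all genes tested. The span was under 2-fold for 64.1% of members and for 43.2% of all genes. Signal height goes with this: among the 1017 genes with a mean signal at or above the members' median, 65.5% also spanned less than 2-fold and the median span was 0.81 units. The delta subunit of the synthase, ATP5D, was the steadiest member, with 1603, 1671 and 1710 in growth plate native, day 10 and day 20, and 1745, 1891 and 1767 in articular cartilage. NDUFAB1, the mitochondrial acyl carrier protein that is also part of complex I, spanned the most, 6.75-fold.

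**Figure D1:**
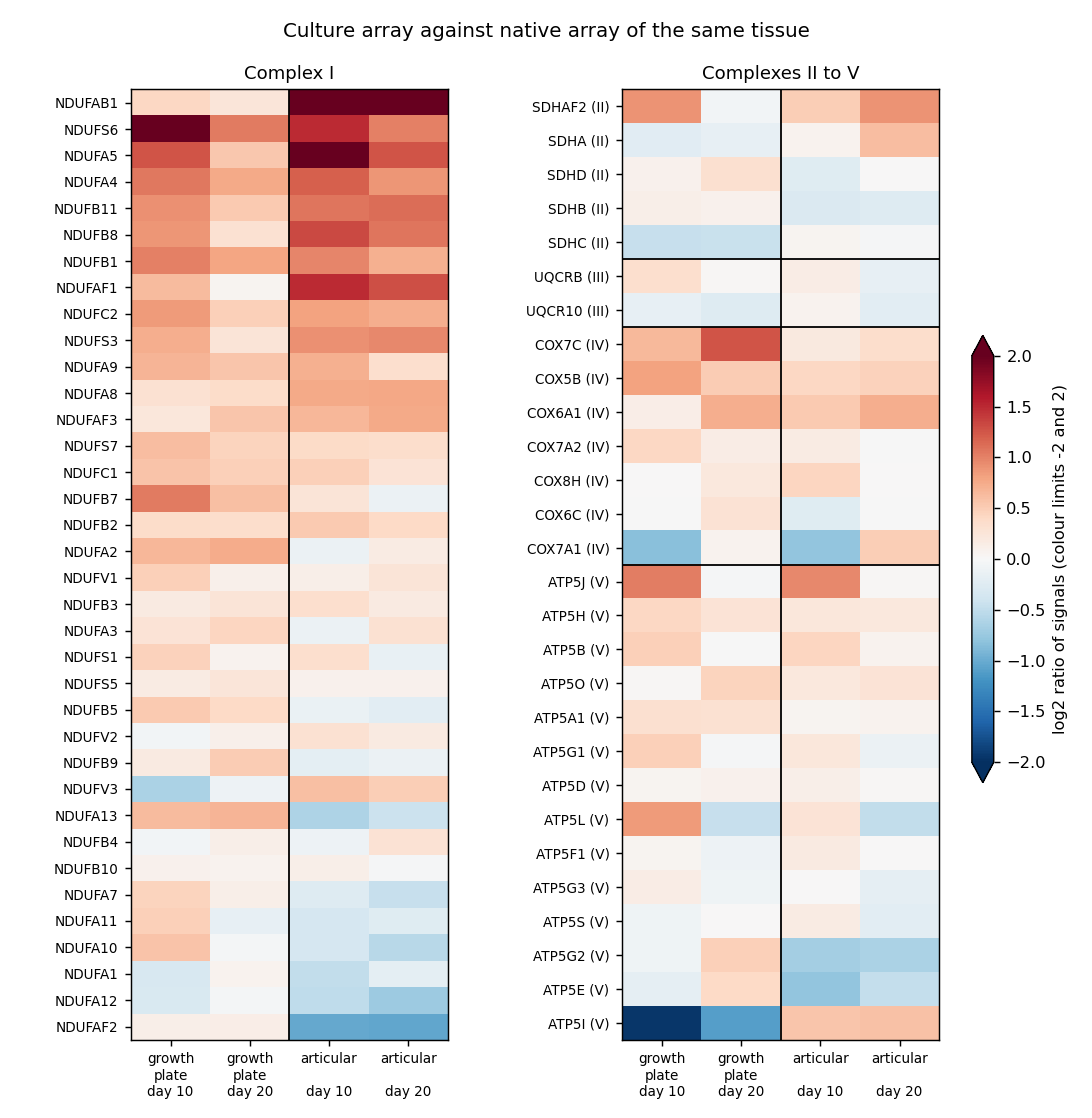
Log2 ratio of each culture array to the native array of the same tissue for the 36 complex I members (left) and the 28 other members (right, complex in brackets), ordered within each complex by fitted culture response. Each cell compares 2 single arrays and colours saturate at -2 and 2; the top rows of complex I are red in all 4 columns, while ATP5I is blue in both growth plate columns and light red in both articular ones.

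Complex I genes were mostly higher in culture than in native cartilage. With genes sorted by symbol and the main settings, the medians of the other complexes lay closer to 0. The fitted difference of the 4 culture arrays from the 2 native arrays was above 0 for 30 of 36 complex I members, with a median of 0.30 log2 units. The medians were 0.04 for complex II, -0.02 for complex III, 0.18 for complex IV and 0.06 for complex V, beside 0.06 for all genes tested. Over all 64 members 49 differences were above 0 (54.6% of all genes were) and the median was 0.17; with median centring 39 were above 0 (48% of all genes). No gene, member or not, passed the call rule of limma (adjusted p under 0.05 and at least 2-fold) in this contrast. At an unadjusted p under 0.05, 17 members were higher in culture (26.6% of them, where 10.6% of all genes were) and 0 were lower (8.8% of all genes were).

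The same counts are given here by complex. Of the 17 members, 13 were among the 36 of complex I and 3 among the 7 of complex IV (COX5B, COX6A1 and COX7C). Another 1 was among the 14 of complex V (ATP5J), and none belonged to complexes II and III. The share was thus no lower in complex IV than in complex I, whose 13 include NDUFA4, now placed in complex IV. All 4 culture arrays lay above both native arrays for 19 of 64 members (29.7%), where 12.9% of all genes did so. Of these 16 were complex I genes, COX5B and COX6A1 were from complex IV, and ATP5A1, the catalytic-head alpha subunit, was from complex V. In no member did all 4 culture arrays lie below both native arrays, which 10.7% of all genes showed. The native growth plate array was the lowest of the 6 for 27 members (15.5% of all genes), and the native articular array for 16 (30.3% of all genes). The median of the members' mean signals was 10.98 log2 units, against 8.86 for all genes. The shares beside these counts are over all genes, and none is given here for genes of like signal. Whether complexes differ from each other was not tested.

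Some cell type markers also differed between native tissue and culture. Of 6 measured osteoblast and osteoclast markers, 4 lay above the floor in native growth plate, 3 in native articular cartilage and 1 or 2 in each culture. Their summed signal was 14972 and 17934 in the native arrays, against 5907 to 8360 in the cultures, nearly all of it from the protease CTSK. Over the 6 measured chondrocyte markers the summed signal was 37025, 33525 and 29764 in growth plate (native, day 10, day 20). In articular cartilage it was 39900, 31515 and 37662. Among them SOX9 read 982 in native articular cartilage and 81.0 and 76.8 in its cultures, but 175, 125 and 118 in growth plate. COMP and COL11A1 went the other way in articular cartilage, with COMP at 3390, 6170 and 8205. HAPLN1 was lower there at day 10 and higher at day 20. Over the 7 measured fibroblast-like markers the summed signal was 34211, 23792 and 36814 in growth plate, with 21952, 31179 and 35426 in articular cartilage. Among them THY1 read 1818 in native articular cartilage and 7416 and 10631 in its cultures, but 6583, 2894 and 8968 in growth plate. TNC alone went the other way in articular cartilage, at 7346, 7033 and 4485. Over the 7 measured hypertrophic chondrocyte markers the summed signal was 31046, 36732 and 37522 in growth plate, with 19568, 11603 and 12231 in articular cartilage. Among them IBSP read 53.2 in native articular cartilage and 309 and 5958 in its cultures, while SPP1 read 19241, 10658 and 4955. The part of cell makeup in the culture response was not tested.

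**Figure D2:**
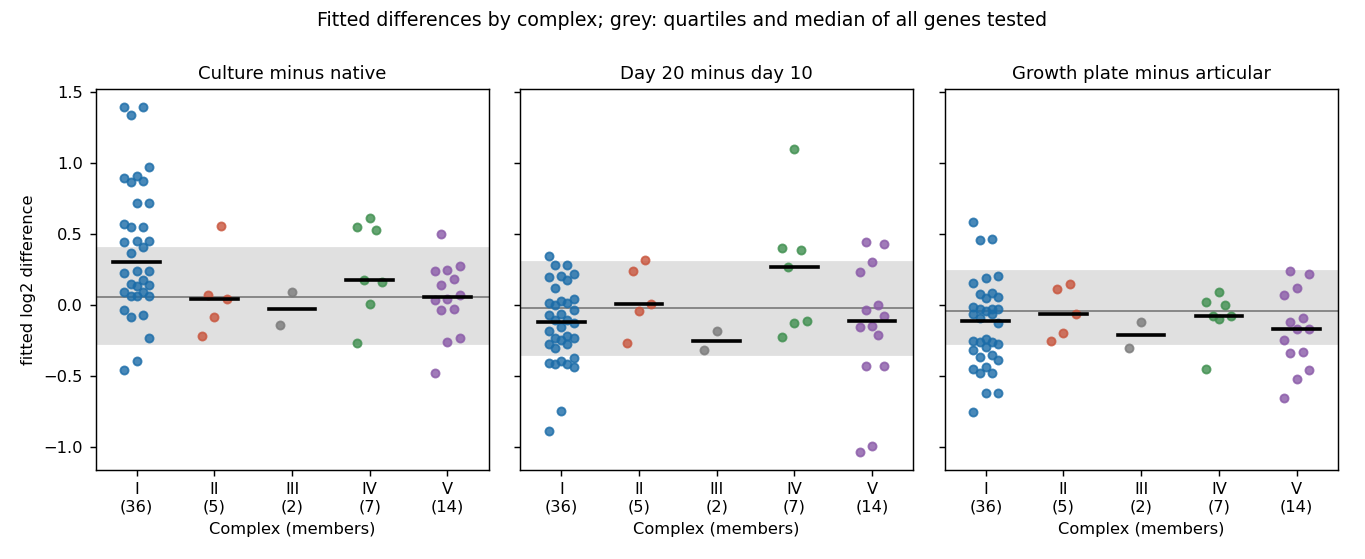
Fitted log2 difference of each member (points) by complex in 3 contrasts, with the median of each complex (black bar) and the quartiles and median of all 5601 genes tested (grey band and line). In the culture contrast the complex I median is 0.30 against 0.06 for all genes, and the median of every complex lies inside the grey band in all 3 contrasts.

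NDUFA4, a small subunit first assigned to complex I and now placed in complex IV, had the smallest adjusted p of all members. Its signal was 3703 in native growth plate, 7681 at day 10 and 6273 at day 20, and 4168, 9493 and 7660 in articular cartilage. Every culture array stood well above both native arrays. The fitted difference was 0.97 ± 0.15 log2 units (SE; 95% interval 0.59 to 1.35; limma adjusted p = 0.101), a 1.96-fold difference. Counted with complex IV, as its current placement has it, NDUFA4 would take that complex's median from 0.18 to 0.35. Without NDUFA4 and the NDUFAF assembly factors, the complex I median would lie between NDUFB3 (0.237) and NDUFV1 (0.238). The order of these complexes thus depends on how the genes are sorted.

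NDUFS6, a zinc-binding accessory subunit near the electron-carrying arm, was 123 in native growth plate and 127 in native articular cartilage. Growth plate culture gave 506 at day 10 and 253 at day 20, and articular culture 356 and 254. It was the 1 member at least 2-fold above its native tissue on all 4 culture arrays, which 0.696% of all genes were. The fit gave 1.39 ± 0.30 (limma adjusted p = 0.142). Its second probe set stayed under the floor on every array.

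NDUFA5, an accessory subunit of the arm that reaches into the matrix, had growth plate signals of 616, 1469 and 894 and articular signals of 298, 1474 and 708, in the order native, day 10, day 20. Both native arrays were below all cultures, and day 10 was the peak in both tissues. Its fitted culture difference was 1.34 ± 0.29 (limma adjusted p = 0.142).

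NDUFAB1 read 2030, 2696 and 2414 in growth plate, but 550, 3711 and 2469 in articular cartilage, so the native articular array was far below the other 5. The fitted difference was 2.63-fold, with an SE of 0.48 log2 units (limma adjusted p = 0.207). Leaving out native articular cartilage took the difference to 0.33 log2 units, and leaving out native growth plate took it to 2.46.

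The proton-pumping membrane arm of complex I holds the NDUFB and NDUFC subunits along with others. Taking these families together was a choice made after the values were seen, and they do not stand for the whole arm. In the NDUFA family, left out of this grouping, NDUFA1 (-0.23), NDUFA7 (-0.04), NDUFA10 (-0.09), NDUFA11 (-0.07) and NDUFA12 (-0.40) were below 0 in culture and the rest above. All 12 measured members of the NDUFB and NDUFC families had a fitted culture difference above 0 (54.6% of all genes), with a median of 0.43. Of them, 6 had an unadjusted p under 0.05 by limma (10.6% of all genes in the higher direction). With median centring NDUFB4 and NDUFB10 were at -0.02 and -0.03. NDUFB1 read 2219, 4440 and 3837 in growth plate, with 2720, 5327 and 4477 in articular cartilage, a difference of 0.87 ± 0.16 (limma adjusted p = 0.114). NDUFB8 (0.89), NDUFB11 (0.91) and NDUFC2 (0.72) also had all 4 culture arrays above both native ones. The 5 measured core subunits that carry the electron path, NDUFV1, NDUFV2, NDUFS1, NDUFS3 and NDUFS7, were likewise all above 0, with a median of 0.24.

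Against its own native tissue, growth plate culture at day 10 held 6 members at least 2-fold higher (7.43% of all genes were), namely NDUFA4, NDUFA5, NDUFB1, NDUFB7, NDUFS6 and ATP5J, and 1 lower, ATP5I (6.86%). At day 20 NDUFS6 and COX7C were higher (4.57% of all genes) and ATP5I lower (5.71%). Articular culture held 7 such members at day 10 (16.1% of all genes) and 6 at day 20 (14.9%), with NDUFA5, NDUFAB1, NDUFAF1, NDUFB8, NDUFB11 and NDUFS6 at both days and NDUFA4 at day 10. NDUFAF2 was lower at both (9.59% and 8.86% of all genes). The members' shares in articular culture, 10.9% and 9.38%, were thus below those of all genes.

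Fitted differences below 0 in culture were fewer, 15 of 64, or 25 with median centring. ATP5I, subunit e of the synthase, had the lowest at -0.48, followed by the complex I assembly factor NDUFAF2 at -0.46 and the accessory subunit NDUFA12 at -0.40. None of these had an unadjusted p under 0.05. NDUFA12 was the 1 member whose every culture array lay below its own native tissue (15.8% of all genes did).

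For ATP5I and NDUFAF2 the tissues gave different signs. ATP5I read 780 in native growth plate and 203 and 362 in its cultures, but 254, 375 and 380 in articular cartilage. NDUFAF2 read 159, 172 and 174 in growth plate, but 415, 204 and 202 in articular cartilage. In each gene 1 native array was the highest of the 6.

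The succinate dehydrogenase genes differed little in culture. SDHA, the flavoprotein that oxidises succinate, had a fitted difference of 0.07, SDHB, the iron-sulfur subunit, -0.09, and the membrane anchors SDHC and SDHD -0.22 and 0.04. SDHAF2, which helps to attach flavin to SDHA, was at 0.56 with an SE of 0.35, and its second probe set went the other way at -0.21. The pair of complex III genes, UQCRB and UQCR10, were at 0.09 and -0.14. With median centring SDHA (-0.02), SDHD (-0.05) and UQCRB changed sign.

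In complex IV, COX7C stood out for its growth plate arrays. It read 4280, 6717 and 10224 there, and 8009, 9127 and 10268 in articular cartilage. The native growth plate array was the lowest of the 6, and the day 10 growth plate array was below native articular cartilage, so the groups overlapped. The fit gave 0.61 ± 0.22 (limma adjusted p = 0.221). The ubiquitous subunits COX5B and COX6A1 were at 0.55 and 0.53.

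Median centring left 9 members at an unadjusted p under 0.05 in the higher direction, where 8.8% of all genes were. It also left 19 members without overlap, with no share of all genes given here for that scaling. It gave a complex I median of 0.21 beside -0.02 for all genes. It also turned the median of all members slightly negative in both articular culture arrays against native articular cartilage, to -0.006 and -0.05 from 0.20 and 0.13, and the complex II and V culture medians to -0.05 and -0.03.

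The result also turned on the native growth plate array. Without it, limma called 6 members higher in culture, NDUFAB1, NDUFA4, NDUFA5, NDUFB8, NDUFB11 and NDUFAF1, among 10.4% of all genes called higher; without the native articular array it called none. Those fits kept the genes of the 6-array fit, some of which no longer vary on the arrays that stay. Applying the low-signal filter again to the arrays that stay, a choice made after the first counts had been seen, gave 8 calls without native growth plate (7 higher, with 13.6% of all genes, and 1 lower, with 7.45%). It gave 2 without native articular cartilage, NDUFS6 higher (1.73% of all genes) and ATP5I lower (2.09%). The share of members called was below that of all genes in each of these 4 counts. Leaving out any one culture array left 8 or 9 members higher at an unadjusted p under 0.05 (4.7% to 7.89% of all genes with the gene set kept). Without native articular cartilage, 38 members had all culture arrays above native growth plate (23.8% of all genes did). Without native growth plate, 24 members lay above native articular cartilage (31.5% of all genes) and 12 below it (30.1%).

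**Figure D3:**
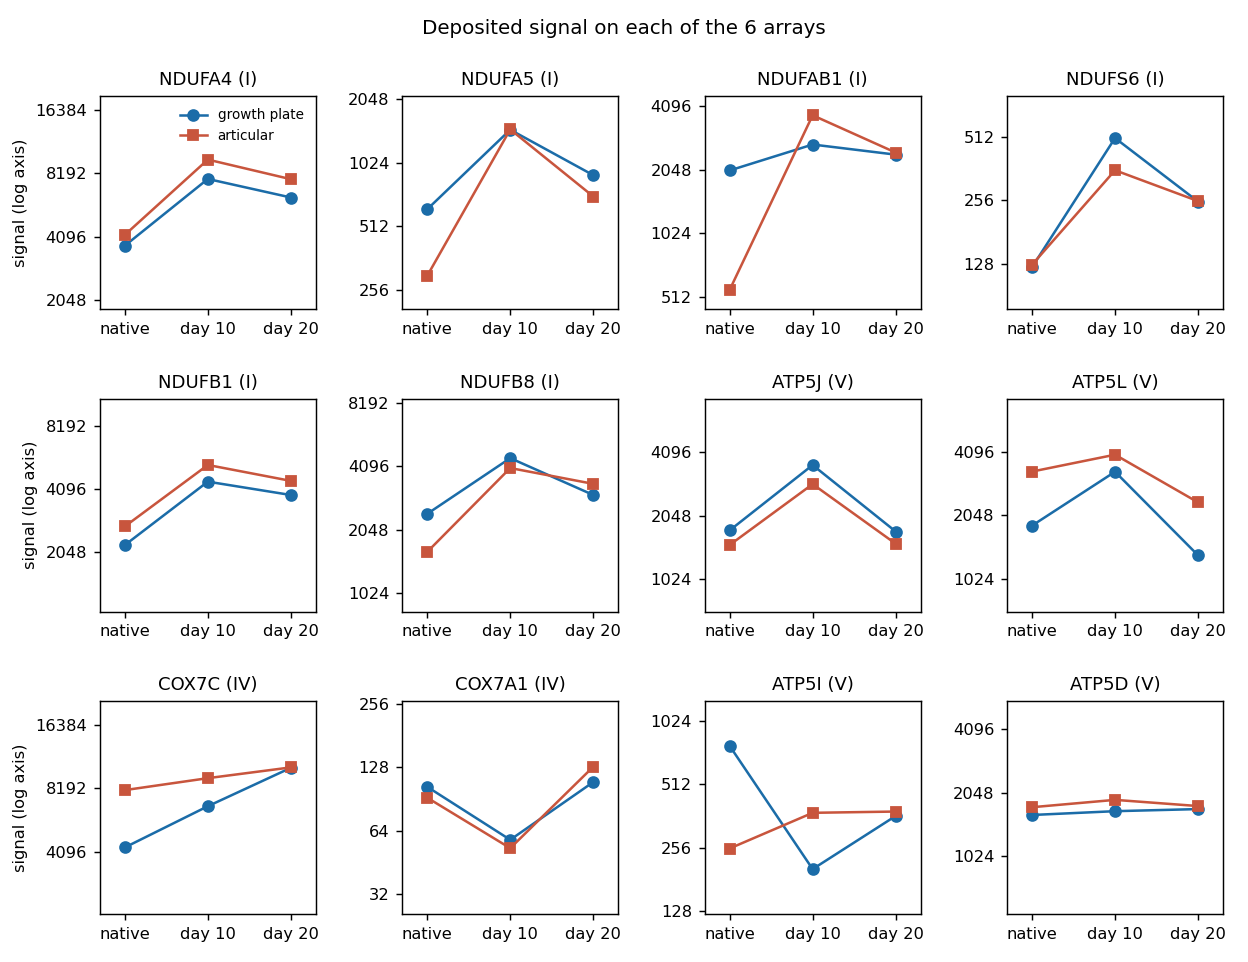
Deposited signal (log axis, same fold span in every panel) of 12 members in native tissue and at days 10 and 20 of culture, with growth plate as circles and articular cartilage as squares, 1 array per point. NDUFA4, NDUFS6 and NDUFB1 sit higher in all 4 cultures, ATP5J and ATP5L peak at day 10, and ATP5D stays between 1603 and 1891.

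Between the culture days the largest fitted differences were in synthase subunits and in a muscle-type complex IV isoform, and limma called no gene with the 6 arrays. At an unadjusted p under 0.05, 1 member was higher at day 20 than at day 10 (7.11% of all genes were) and 3 were lower (7.53% of all genes were). The medians of the fitted differences were -0.12 for complex I, 0.01 for complex II, -0.25 for complex III, 0.27 for complex IV and -0.11 for complex V, beside -0.02 for all genes. Of the members, 28 were lower at day 20 in both tissues (35.9% of all genes were) and 18 were higher in both (33% of all genes). At least 2-fold lower at day 20 were NDUFS6, ATP5J and ATP5L in growth plate (7.07% of all genes), with none higher (6.61%). In articular cartilage NDUFA5 was lower by that size (5.57%) and COX7A1 higher (5.78%). A dimmer second probe set of NDUFA1, above the floor on all 6 arrays, was at 1.47 between days. From day 10 to day 20 it went from 1446 to 3335 in growth plate and from 1100 to 3671 in articular cartilage. The probe set used for NDUFA1 was at 0.34.

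ATP5J, coupling factor F6 in the stalk that holds the synthase head, read 1740, 3556 and 1720 in growth plate, with 1484, 2888 and 1505 in articular cartilage. Day 10 was the highest stage in each tissue, and native and day 20 signals lay close together. The fitted day difference was -0.99 ± 0.20 (limma adjusted p = 0.167).

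ATP5L, subunit g, which acts where synthase dimers meet, read 1830, 3300 and 1323 in growth plate, with 3305, 3975 and 2360 in articular cartilage. In both tissues day 20 was the lowest of the 3 stages. The fitted difference was -1.04 ± 0.24 (limma adjusted p = 0.190), and a second probe set went the same way, at -1.37.

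COX7A1, the heart and muscle form of a complex IV subunit, was the 1 member higher at day 20 at an unadjusted p under 0.05 by limma. Its low signals were 103, 58 and 109 in growth plate, with 92, 53 and 129 in articular cartilage, so both day 10 arrays were the lowest of their tissue. The fitted difference was 1.10 ± 0.31 (limma adjusted p = 0.248). The partner isoform COX7A2, found in most tissues, was at -0.23. The other heart-type gene, COX8H, stayed between 7.18 and 48.7, at or near the floor.

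Muscle markers were measured because of these isoforms. Of 13 measured skeletal muscle markers, 0 to 4 lay above the floor on an array, and their summed signal was 224 and 152 in the native arrays and 510 to 658 in the cultures. The muscle creatine kinase CKM ranged from 24.2 to 43.1, and in the 4 cultures the sum came mostly from DES and MYL1. The part of muscle-type cells in the COX7A1 values was not tested.

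The 4 cultured arrays fitted alone gave ATP5J an adjusted p of 0.0366 by limma, at 1.99-fold and so short of the call rule. That fit called no member, where 3.71% of all genes were called. With the filter applied again to those 4 arrays, limma called ATP5L (adjusted p = 0.00261) and COX7A1 (adjusted p = 0.0374), among 4.6% of genes called lower and 4.7% called higher. Without the native growth plate array, limma on the 6-array gene set called ATP5L alone (adjusted p = 0.0480). There 2.05% of all genes were called lower and 1.93% higher.

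Day 10 was also the top stage across both tissues for part of the set. Both day 10 arrays lay above the other 4 for 17 members (26.6%), where 15% of all genes did so. Of these, 12 were in complex I and 3 in complex V (ATP5B, the catalytic beta subunit, ATP5G1, a copy of the ring-forming subunit c, and ATP5J). The 3 genes for that ring subunit had different signs between days: ATP5G1 was at -0.43, ATP5G2 at 0.31 and ATP5G3 at -0.21.

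Growth plate and articular cartilage differed by small amounts, with most members lower in growth plate. The fitted growth plate minus articular difference was below 0 for 46 of 64 members (54.9% of all genes) and had a median of -0.11, beside -0.04 for all genes. No member was called by limma, where 0.0357% of all genes were called higher and 0.0179% lower. At an unadjusted p under 0.05, 2 members were lower in growth plate (5.68% of all genes were) and 0 higher (4.98%).

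ATP5L was the lower of these at -0.65 ± 0.19 (limma adjusted p = 0.426), with the signals given above: at each stage the growth plate array was below its articular counterpart. NDUFB10, a membrane-arm subunit, read 504, 532 and 530 in growth plate, with 782, 846 and 771 in articular cartilage. No growth plate array reached the lowest articular one, and the fit gave -0.62 ± 0.21 (limma adjusted p = 0.452).

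The growth plate array was below its articular counterpart at every stage for 25 members (19.5% of all genes). All 3 growth plate arrays lay below all 3 articular arrays for 15 of 64 members (23.4%), where 6.16% of all genes did so, and none lay above (4.62% of all genes did). Of the 15, 10 were complex I genes, among them NDUFA12, NDUFB5 and NDUFV2; the others were SDHB, UQCR10, ATP5D, ATP5F1 and ATP5H. Dimmer second probe sets of NDUFV2 and SDHB, above the floor on all 6 arrays, went the other way, at 0.49 and 0.22, and that of NDUFV2 had every growth plate array above every articular one. The differences were small: ATP5D, which met this rule, was at -0.12. Without the day 10 growth plate array 25 members met it (12.4% of all genes). These shares, too, are over all genes rather than over genes of like signal. Median centring kept the direction and moved the median of the members to -0.20 and that of all genes to -0.12.

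The native pair held most of the larger gaps. Native growth plate exceeded native articular cartilage at least 2-fold for NDUFA5, NDUFAB1, NDUFAF1 and ATP5I, 4 members where 12.9% of all genes did so. It was lower by that size for NDUFA13, NDUFAF2 and ATP5G2, 3 members beside 7.91% of all genes. In culture 1 member, NDUFV3 at day 10, passed 2-fold with signals of 36.5 and 94.6 near the floor (3.89% of all genes were lower by this size and 3.43% higher), and none did at day 20 (4.09% lower and 2.82% higher). For ATP5I and NDUFAB1 the 4 cultured arrays alone gave the opposite sign, -0.48 and -0.25 against 0.22 and 0.46 with the native arrays included.

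The culture response was also compared between the tissues, taking the 2 culture days as replicates of a cultured group. No gene was called by limma. At an unadjusted p under 0.05, the growth plate response minus the articular response was above 0 for NDUFA13 (1.19; 2.86% of all genes were on this side) and below 0 for NDUFAB1 (-2.13 ± 0.47) and ATP5I (-2.10 ± 0.69; 5.61% of all genes). The smallest adjusted p of the members was 0.542. Each of these rests on 1 native array per tissue, assumed to vary like the cultures.

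**Figure D4:**
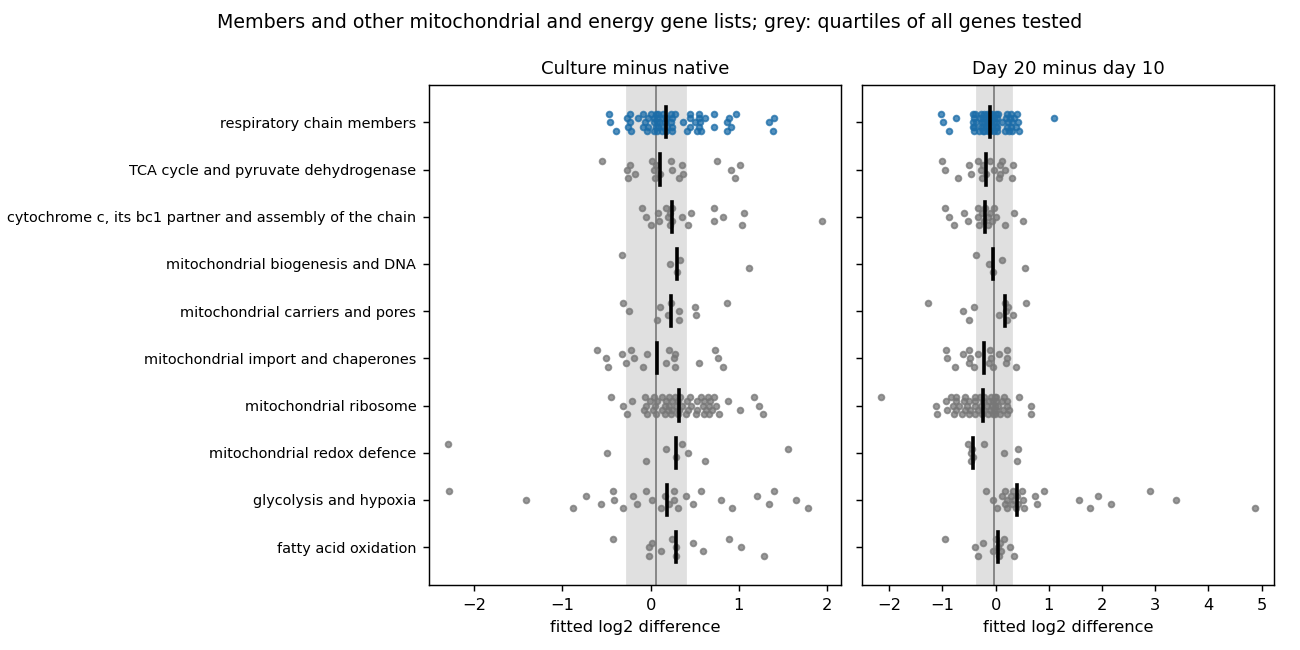
Fitted log2 differences in culture against native tissue (left) and day 20 against day 10 (right) for the members (top) and 9 other gene lists, each point a gene, with the median of each list (black) and the quartiles of all genes tested (grey). The mitochondrial ribosome list has a culture median of 0.32, and the glycolysis and hypoxia list a day median of 0.41.

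Other mitochondrial gene lists gave a background for these values. None of the 9 lists held a gene called by limma in the 3 contrasts; genes counted below as higher or lower had an unadjusted p under 0.05. In the culture contrast the mitochondrial ribosome genes had a median of 0.32 over 58 genes, with 49 above 0, 14 higher at an unadjusted p under 0.05 and 0 lower, led by MRPS28 (1.28), MRPS12 (1.23) and MRPS14 (1.18). Cytochrome c and assembly genes had a median of 0.24 over 20 genes, 5 higher and 0 lower, with cytochrome c itself, CYCS, at 1.04.

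TCA cycle and pyruvate dehydrogenase genes had a culture median of 0.10 over 19 genes, 4 of them higher at that threshold and 0 lower. Citrate synthase, CS, was at 0.91 and DLST at 1.02. Import genes had a median of 0.07 over 18 genes (3 higher, 0 lower), with TIMM8B at 0.82. Carriers had 0.23 over 11 genes (2 higher, 0 lower), biogenesis 0.29 over 5 (1 higher, TFB1M at 1.11; 0 lower), and fatty acid oxidation 0.29 over 13 (2 higher, 0 lower).

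Redox genes lay on both sides of 0, with a median of 0.29 over 9 genes. Glutaredoxin GLRX2 was at 1.56, and SOD2, the mitochondrial superoxide dismutase, was at -2.30; its signal was 7405 in native articular and 2697 in native growth plate cartilage and 542 to 1130 in the cultures.

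For 28 genes of glycolysis and the hypoxia response the median was 0.18 in culture (4 higher, 3 lower) and 0.41 between days 10 and 20, where 26 of 28 were higher at day 20, 7 of them at an unadjusted p under 0.05 and 0 lower. VEGFA, a hypoxia-responsive growth factor, was at 1.92 between days. Over the same interval the respiratory chain median was -0.10, and mitochondrial ribosome genes were at -0.24 (1 higher, 8 lower at that threshold). The lists share all arrays with the members, and the difference between lists was not tested.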

How the data were processed

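The authors deposited linear signal intensity values from Affymetrix arrays, for which the submitters' processing notes name GCOS 1.4; scaling settings are not given in the sources used here. RNA was labelled from 100 ng per sample by a 2-cycle protocol, per the labels' protocols. Values under the 40th percentile of all non-control signals were set to it, log2 was taken, and genes above it on at least 2 arrays were kept. Differences were fitted with limma 3.58.1 in R 4.3.3 (tissue + stage, intensity trend, Benjamini-Hochberg over 5601 genes; called at adjusted p under 0.05 and 2-fold). With 1 array per condition the residual is only the tissue-by-stage interaction, so p-values carry no replicate error; the number of arrays limits precision. Probe sets were named from the platform table: 10069 had 1 symbol, 198 several and 13732 none.

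The members, lists and naming rule were chosen with earlier results of these data known. Members were named for the 6 largest fitted differences each way per contrast, the largest by complex, isoforms and SDHA to SDHD. Where arrays were left out, the fits kept the same gene set; because some genes at the floor then had no variance, a refit with the filter applied again was added after its counts were compared with an earlier analysis of these data. Promoter and protein sequences were not analysed here. The fit was tried on simulated data with independent noise for each gene. Those data held no shift of a whole array and no tissue-by-stage difference, so the trial does not cover these.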

Additional observations from a re-analysis of the deposited data

How the results depend on the processing

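No paired analysis was possible because the labels tie no arrays of different conditions to the same animals and number no replicates. Leaving out each array in turn gave 0 to 8 members called in the culture response, 0 to 2 in the day difference and 8 to 18 higher in culture at an unadjusted p under 0.05 by limma; the upper call counts come from the filter applied again, which was chosen after seeing the data, and are 6 and 1 with the gene set kept. All genes called made up 21% beside the 8, and 8.94% to 9.14% beside the 2. The same step gave 20 to 38 members with cultures above native (23.8% of all genes beside the 38), 0 to 12 below (30.1% beside the 12), 0 to 5 with growth plate above articular cartilage (9.66% beside the 5), 15 to 25 below (12.4% beside the 25), and -0.18 to 0.15 for the complex II tissue median. The cultured arrays alone, filtered again, gave 2 called in the day difference (9.3% of all genes).

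Among the genes with the largest fitted differences in each contrast, signs turned in 4, given here as the range over left-out arrays. In the culture response ATP5E ran from -0.63 to 0.12 and NDUFAF2 from -1.03 to 0.12, both above 0 without native articular cartilage, and ATP5I from -1.53 to 0.57, above 0 without native growth plate. Outside these genes, NDUFA13 was at -0.53 without native growth plate and 0.66 without native articular cartilage. In the day difference ATP5I ran from -0.40, without day 10 growth plate, to 1.26. In the tissue difference ATP5I ran from -0.48 to 0.78 and NDUFAB1 from -0.25 to 0.93, below 0 without either native array and in cultured arrays alone.

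Counting at 1.5-fold gave 22 members for growth plate day 10 against native, 9 for day 20, and 11 between its days. It gave 20, 18 and 5 for the same articular pairs, 20 for the native tissue pair, and 4 for each culture-day tissue pair. Of all genes, 19% were higher and 16.7% lower at growth plate day 10, and 13.1% and 14.6% at day 20. Between its days the shares were 15.5% and 18.9%, and for the articular pairs 27.3% and 20.4%, 26% and 19.4%, and 14.2% and 14.6%. For growth plate against articular they were 23.2% and 20.9% (native), 9.78% and 11.7% (day 10), and 8.8% and 12.5% (day 20). Members exceeded these shares only for higher at growth plate day 10 (29.7%) and lower in native growth plate (23.4%). The pair counts that follow return to the 2-fold rule. At that rule the main settings gave 7 in the native pair, 7 in articular day 20 against native and 3 between growth plate days. Median centring gave 14, 4 and 1 for the same pairs. It also gave 9 higher in culture at an unadjusted p under 0.05 and 1 with cultures below native. The mean of the probe sets gave 5 and 4 in the articular day 10 and day 20 pairs, 0 in growth plate day 20 against native and between growth plate days, 4 in the native pair, and a complex II day median of 0.24. A floor at the 60th percentile gave 1 between articular days, 0 in the day 10 tissue pair and a complex IV culture median of 0.53. A floor at the 25th percentile and a pseudocount of 16 each gave 2 in the day 10 and 1 in the day 20 tissue pair. No intensity trend gave 11 higher in culture at an unadjusted p under 0.05. For the settings after the 1.5-fold rule, these counts are given without the share of all genes and so have no background here. Causes were not tested.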

Other observations

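The probe set annotated to a pair of ATP5SL gene records falls outside the single-symbol rule. It read 48.6, 89.2 and 121 in growth plate cartilage (native, day 10, day 20) and 35.3, 49.6 and 95.8 in articular cartilage, so both tissues were highest at day 20.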
